A study of Bos taurus with 64 samples.

Results

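The transcripts of 2 genes of the neuromuscular junction, MUSK and LRP4, were described in the muscles of Normand cows. The members were all non-control probes that the array files named MUSK or TC378976, an identifier which the files describe as LRP4. Each gene had 1 probe, of 13285 probes with 5449 gene names or identifiers on the array. Both genes were selected on their measured signal difference between the stressed and the calmly handled animals of these same arrays. Their stress values are therefore given below as a description and without a test.

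Gene expression was measured with single-colour Agilent arrays in the M. longissimus thoracis (LT) and the M. semitendinosus (ST) of 32 cows, 64 arrays in all. All cows were about 4.5 years old and were finished on straw and concentrate enriched with lipids from linseed and rapeseed, and 16 of them (the EP diet) also received vitamin E and plant extracts (PERP) rich in polyphenols. In the stressed group of 16 cows (called moderated stress in the labels), each animal was isolated in a lorry and then led through a labyrinth for 30 minutes on an unknown farm, whereas the other 16 were handled calmly and slaughtered with limited stress. Every combination of stress and diet held 8 cows, each cow gave 1 array per muscle, and each array measured 1 piece of whole muscle, taken within 15 minutes of slaughter and frozen.

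The neuromuscular junction is the synapse between a motor nerve ending and a muscle fibre. The nerve releases agrin, which binds LRP4, a receptor of the LDL receptor family in the muscle membrane. LRP4 then activates MUSK, a muscle-specific receptor tyrosine kinase, and this signal gathers acetylcholine receptors opposite the nerve ending. In adult muscle these transcripts come largely from the few nuclei under the synapse. In a piece of whole muscle, fewer synaptic nuclei and less RNA per nucleus cannot be told apart.

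The level of each gene rested on 1 probe of 60 bases, so no second probe was available to set beside it. The files place the MUSK probe on the plus strand at chr8:105315406-105315465 and the LRP4 probe on the minus strand at chr15:77172532-77172591, in the bovine build Btau_3.1. A stretch of 30 bases of each probe is shown to let its reading frames be seen, and capitals mark the first stop codon of each forward reading frame.
MUSK, bases 1 to 30: aTAGaaaactccaaagaaggaaaaaccatt
LRP4, bases 20 to 49: gtccttTAGtTAAgattTAActttgaagac
The LRP4 probe had a stop codon in all 3 forward frames, whereas 2 frames of the MUSK probe had none. Neither probe shared 25 bases in a row with another probe of the array. The RefSeq gene table of the assembly ARS-UCD2.0 held both symbols, with MEGF7 as a synonym of LRP4. The exon or untranslated region in which each probe lies was not analysed here.

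Signals are given in array units after division by the 75th percentile of each array, rescaled to the median array. This percentile ranged from 2470 to 4202 units, and the share of spots well above background ranged from 71.4% to 80.9%. The LRP4 probe was well above background on all 64 arrays, and the MUSK probe on 59, of which 30 were of the LT and 29 of the ST. The 5 MUSK spots that were not well above background came from 5 different cows. No spot of either probe was saturated or set aside by the scanner software. The LT filled 4 slides, the ST took up 5 others, and no slide or scan day held both muscles. Levels of the 2 probes are not compared with each other, since probes differ in brightness.

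LRP4, the agrin receptor, had a higher signal in most stressed cows of both muscles. In the LT, its signal was lowest at 49.0, had a median of 122 and was highest at 296.6 in the 16 cows with limited stress, against 97.2, 260 and 390 in the 16 stressed cows. In the ST, the lowest, median and highest signals were 68.7, 107 and 192 with limited stress and 70.0, 157 and 333 with stress. The groups overlapped in both muscles, and the signal exceeded the limited stress median in 15 of 16 stressed cows for the LT and 14 of 16 for the ST. The log2 difference between stressed and limited stress cows was 1.01 in the LT (SE 0.20) and 0.59 in the ST (SE 0.18), or 2.01-fold and 1.51-fold.

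The stress difference of LRP4 is also given within slides. On all 4 LT slides the mean of the stressed cows was higher, by 0.58 to 1.23 on the log2 scale. On the 5 ST slides the difference was 1.22 and 0.81 on 2, the latter with 1 limited stress cow, and between -0.04 and 0.07 on the other 3. These 3 slides held only 1 or 2 stressed cows each. The highest LRP4 signal of the limited stress cows came from the same animal in both muscles, a cow on the control diet (296.6 in the LT and 192 in the ST). The lowest signal of the stressed cows also came from the same animal in both, a cow on the EP diet (97.2 and 70.0).

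MUSK, the receptor tyrosine kinase, was dim and its groups overlapped widely. In the LT its lowest, median and highest signals were 12.0, 30.1 and 40.8 with limited stress and 14.2, 42.4 and 92.6 with stress. Of the 16 stressed cows, 13 were above the limited stress median and 9 were above every limited stress cow. In the ST these signals were 17.2, 34.3 and 51.4 with limited stress and 18.1, 33.9 and 98.9 with stress, with 8 of 16 stressed cows above the limited stress median. The 2 medians of the ST were thus close, while 5 stressed cows exceeded all 16 with limited stress. The log2 difference was 0.54 in the LT (SE 0.18, 1.45-fold) and 0.27 in the ST (SE 0.22, 1.21-fold).

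The MUSK difference within slides ranged from 0.19 to 0.997 in the LT, where it was above 0 on all 4 slides. In the ST it ranged from -0.36 to 0.94 and was above 0 on 4 of 5 slides. Each of those 4 ST slides held only 1 or 2 stressed cows or only 1 limited stress cow. The size of the MUSK difference moved with the processing. With a normexp background correction and quantile normalization, which compress dim signals, it was 0.19 (SE 0.06) in the LT and 0.10 (SE 0.08) in the ST. The corresponding LRP4 differences were 0.71 (SE 0.14) and 0.45 (SE 0.12). Scaling to the control features lowered the median of all probes in the LT by 0.18, and MUSK was then 0.36 and LRP4 0.83 in this muscle.

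**Figure D1:**
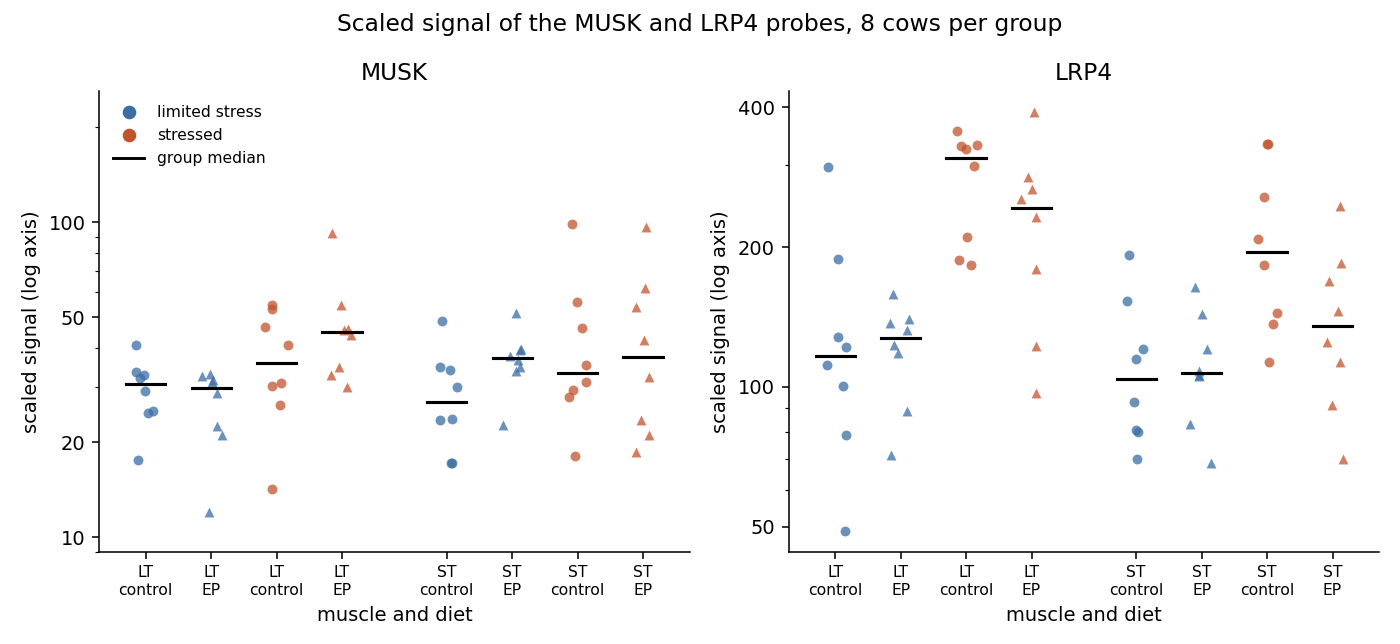
Scaled signal of the MUSK probe (left) and the LRP4 probe (right) on a log axis, by muscle and diet, with 1 point per cow (8 per group), blue for limited stress, orange for stressed cows, circles for the control diet and triangles for the EP diet, and a black line at the group median. The stressed groups lie higher for LRP4 in both muscles, while the MUSK groups of the ST overlap over most of their range.

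The stress difference of each gene was also set out by diet. For LRP4 in the LT it was 1.18 on the control diet and 0.83 on the EP diet, and the stressed cows on the control diet had signals of 183 to 356 with a median of 312. In the ST it was 0.89 on the control diet and 0.30 on the EP diet. For MUSK in the LT it was 0.26 on the control diet and 0.82 on the EP diet, where all 8 stressed cows exceeded the limited stress median. In the ST the MUSK values were 0.48 and 0.06. The diets were spread unevenly over the ST slides, where the stressed cows on the control diet lay on fewer slides than those on the EP diet. The ST slide with 1 limited stress cow held none on the control diet with limited stress. Diet and slide were thus partly mixed in the ST values. The interaction of stress and diet was tested with limma in each muscle and was not past the threshold for either gene. The stress difference on the EP diet minus that on the control diet was 0.56 for MUSK in the LT (95% confidence interval -0.16 to 1.28, adjusted p = 0.9998) and -0.42 in the ST (-1.31 to 0.47, adjusted p = 0.971). For LRP4 it was -0.35 in the LT (-1.16 to 0.46, adjusted p = 0.9998) and -0.60 in the ST (-1.33 to 0.13, adjusted p = 0.969). No transcript was called for this interaction in either muscle (0%), with 2.63% of the probes of the LT and 4.77% of those of the ST at an unadjusted p under 0.05.

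The diet comparison asked whether the antioxidant supplement moved either transcript over both stress groups. Neither gene was called, where a call means that at least 80% of the probes of a transcript had an adjusted p under 0.1 in one direction. The limma fit called 0 of 4309 transcripts for diet in the LT (0%), where 407 probes had an unadjusted p under 0.05. It called 0 of 4244 in the ST (0%), where 531 probes did, and 2 with the slide or the scan day as a block. LRP4 had lowest, median and highest signals of 49.0, 188 and 356 on the control diet and 71.5, 138 and 390 on the EP diet in the LT. The log2 difference (EP minus control) was -0.18 (95% confidence interval -0.59 to 0.22, limma adjusted p = 0.996), and 0.018 with the control features as scaling. In the ST the LRP4 signals were 69.9, 140 and 333 on the control diet and 68.7, 117 and 245 on the EP diet, a difference of -0.27 (-0.64 to 0.09, limma adjusted p = 0.949).

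MUSK had signals of 14.2, 31.4 and 54.5 on the control diet and 12.0, 32.5 and 92.6 on the EP diet in the LT, and 17.2, 30.6 and 98.9 against 18.7, 37.1 and 96.6 in the ST. The diets overlapped in every case. The log2 difference was 0.10 in the LT (95% confidence interval -0.26 to 0.46, limma adjusted p = 0.999) and 0.21 in the ST (-0.24 to 0.65, limma adjusted p = 0.949). Among the stressed cows alone, LRP4 in the ST was lower on the EP diet by a log2 difference of -0.57 (SE 0.25), which was not past the threshold (limma adjusted p = 0.642). These stressed cows were spread unevenly over the ST slides by diet, so diet and slide were partly mixed in this value.

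The comparison of the muscles was independent of the choice of the genes for their stress difference, and the cow numbers paired the LT and the ST of an animal. LRP4 was higher in the LT. Its signals were 49.0, 169 and 390 (lowest, median and highest of 32) in the LT and 68.7, 123 and 333 in the ST, with the LT above the ST in 22 of 32 cows. The log2 difference (LT minus ST) was 0.34 (SE 0.14, 1.26-fold, limma adjusted p = 0.0335), and with the cow as a replicate block the adjusted p was 0.00232. LRP4 was 1 of 2217 transcripts called for muscle among 4325 (51.3%). Slide and muscle cannot be told apart in these arrays. With the slide as a random block the difference was 0.35 (limma adjusted p = 0.123) and with the scan day 0.34 (limma adjusted p = 0.203), so that the call was lost in both.

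The muscle difference of LRP4 was 0.13 (SE 0.19) in the 16 cows with limited stress, where 8 were higher in the LT, and 0.54 (SE 0.19) in the 16 stressed cows, where 14 were higher. The distance between these values, 0.41 (SE 0.27), contains the contrast on which the gene was selected and was not tested. MUSK did not pass the threshold for muscle. Its signals were 12.0, 32.2 and 92.6 in the LT and 17.2, 34.3 and 98.9 in the ST, with the LT above the ST in 14 of 32 cows. The log2 difference was -0.08 (95% confidence interval -0.37 to 0.20, limma adjusted p = 0.657) and changed sign with the scaling, being 0.11 with the control features and 0.046 without scaling. These scalings moved the median of all probes by 0.19 and 0.13. Neither gene passed the threshold for the interaction of muscle and diet (MUSK -0.11, or 0.023 with the control features as scaling, and LRP4 0.093, limma adjusted p = 0.9999 for both), in a comparison where 0 of 4325 transcripts were called (0%) and 53 probes had an unadjusted p under 0.05.

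**Figure D2:**
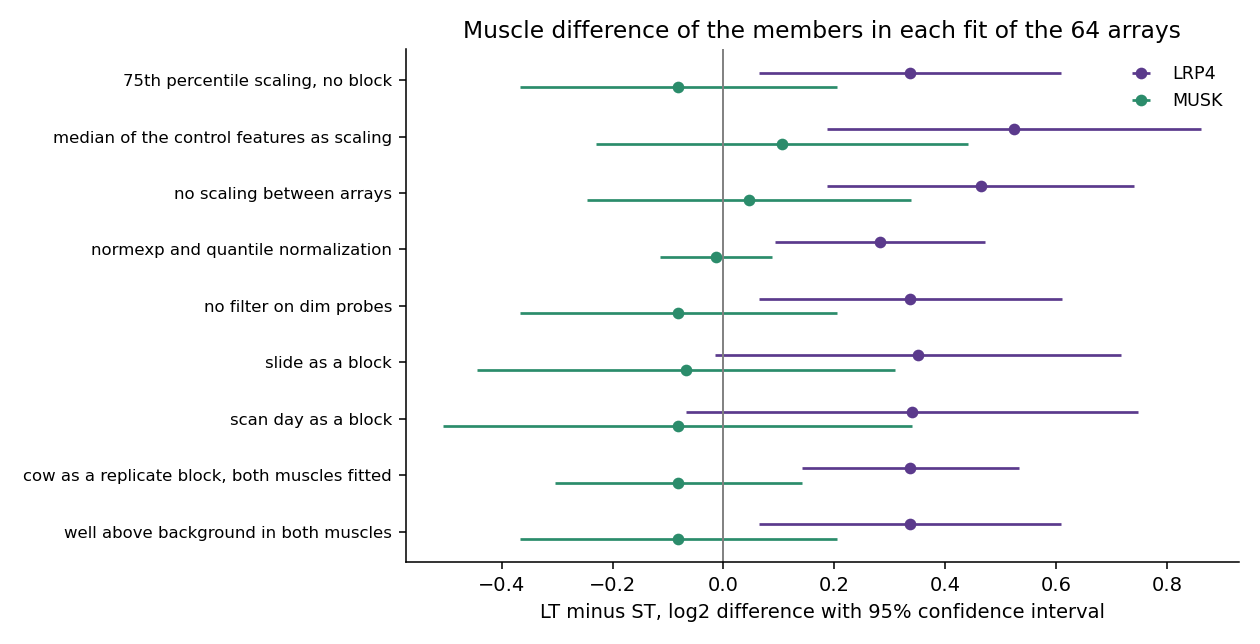
Log2 difference between the LT and the ST (x axis, above 0 means higher in the LT) of LRP4 (violet) and MUSK (green) in each fit of the 64 arrays (y axis), with points for the estimate and bars for its 95% confidence interval. LRP4 lies above 0 in every fit, but its interval reaches below 0 with a block for slide or scan day, and the MUSK interval includes 0 in every fit.

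The levels of the 2 genes were then set against each other on the same array. MUSK and LRP4 encode the partners of 1 receptor complex, but no relation between their levels was detectable within a stress group. In the LT, Pearson's r was 0.04 (rho = -0.08) with limited stress and 0.04 (rho = -0.03) with stress, each over 16 cows. In the ST, r was 0.19 (rho = 0.06) with limited stress and -0.10 (rho = -0.14) with stress. Relations were held to an adjusted p under 0.05. All 4 had a permutation p adjusted over the 8 relations tested of 0.867 for r and 0.916 for rho. Without the 2 cows farthest from the MUSK median, r was 0.01, -0.18, 0.15 and -0.02 in the same order. Centred on slide and stress group, r was -0.0021, 0.042, 0.018 and -0.023.

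Single cows were also placed by both genes at once. In the LT, 12 of the 16 stressed cows were above the limited stress median for both genes, 3 for LRP4 alone and 1 for MUSK alone. In the ST, 7 stressed cows were above for both genes, 7 for LRP4 alone, 1 for MUSK alone and 1 for neither. The cow with the highest LRP4 signal of the LT (390) had a MUSK signal of 32.7. The cow with the highest MUSK signal of the LT (92.6) had an LRP4 signal of 266.95. With the control features as scaling, the 4 values of r were 0.41, 0.36, 0.54 and 0.10, with adjusted p of 0.0864 or more, the lowest being that of the ST with limited stress. The rho of the limited stress cows passed the threshold there, at 0.62 in the LT and 0.60 in the ST (permutation adjusted p = 0.0302 for both). In the stressed cows rho was 0.13 in the LT and 0 in the ST. Without scaling between arrays the 4 values of r were 0.09, 0.16, 0.06 and -0.03. The cause of these changes with the scaling was not tested.

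**Figure D3:**
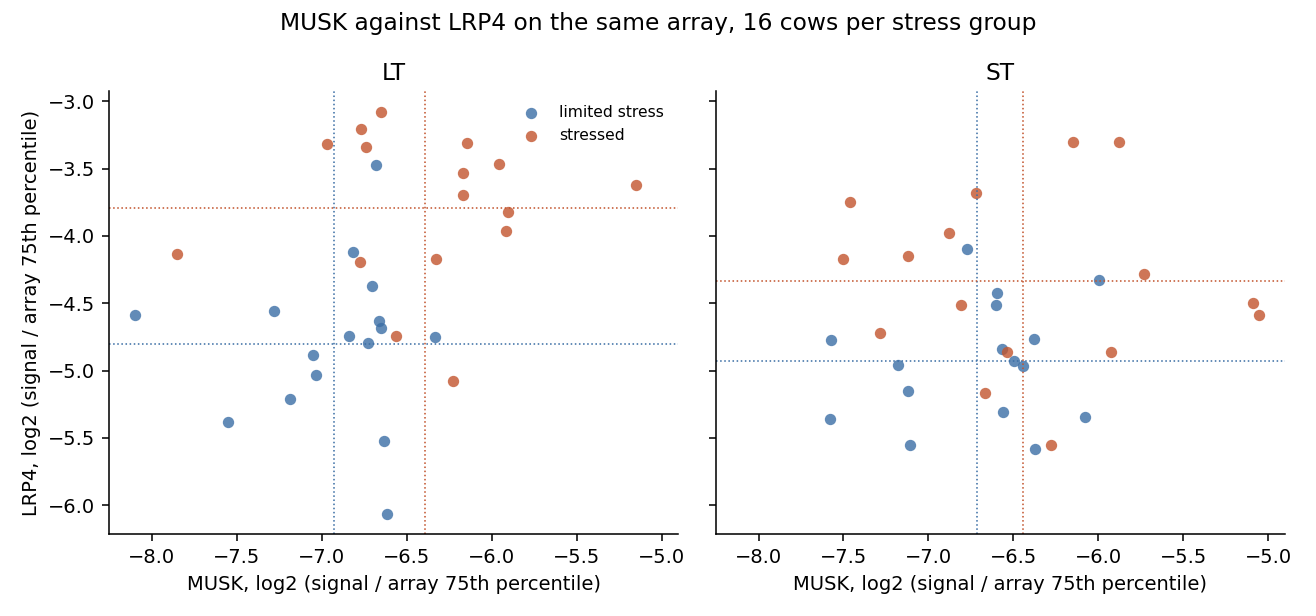
MUSK (x axis) against LRP4 (y axis) on the same array, both as log2 of the signal over the 75th percentile of the array, in the LT (left) and the ST (right), with 1 point per cow, blue for limited stress and orange for stressed cows, and dotted lines at the group means. The orange points are shifted upwards in both muscles, and within each colour the points show no slope.

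The 2 muscles of a cow were compared for each gene. For LRP4, the LT and ST levels of a cow went together in the stressed cows, with r = 0.87 and rho = 0.84 over 16 cows (permutation p adjusted over the 8 relations 0.00032 and 0.00096). Without the 2 cows farthest from the LT median r was 0.77, and after centring on the diet group, an alternative chosen after seeing the data, it was 0.86. Centred on slide and stress group r was 0.62 over 15 cows (adjusted p = 0.0322), and centred on scan day it was 0.80 (adjusted p = 0.00112). With the control features as scaling r was 0.63 and above the threshold of 0.05 (adjusted p = 0.0622). In the limited stress cows r was 0.53 and rho 0.45 (adjusted p = 0.132 and 0.230), and r fell to 0.21 without the 2 farthest cows. It was 0.82 over 15 cows when centred on slide and stress group (adjusted p = 0.00208) and 0.78 when centred on scan day (adjusted p = 0.00128). The difference between the stress groups was not tested.

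Muscles of the same cow tended to go together over the whole array. As a description, the median r between the LT and the ST over transcripts was 0.47 in the stressed and 0.41 in the limited stress cows, each over 16 cows. In the stressed cows, 156 of 4216 transcripts (3.70%) had a higher r than LRP4, and in the limited stress cows 1413 of 4232 (33.4%). For MUSK, r was 0.49 and rho 0.60 in the stressed cows (permutation p adjusted over the 8 relations 0.132 and 0.0618), and 47.4% of the transcripts had a higher r. Without the 2 farthest cows it was 0.63, and centred on slide and stress group 0.53 (adjusted p = 0.119). The rho passed the threshold at 0.64 centred on slide and stress group and at 0.64 centred on scan day (permutation adjusted p = 0.0482 and 0.0278). In the limited stress cows r was -0.11 and rho -0.03 (adjusted p = 0.867 and 0.916), r was 0.18 without the 2 farthest cows and -0.26 when centred on slide and stress group (adjusted p = 0.716). There, 3877 of 4232 transcripts (91.6%) had a higher r. One cow had the lowest MUSK signal of the LT arrays (12.0, not well above background) and the highest of the limited stress cows in the ST (51.4).

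**Figure D4:**
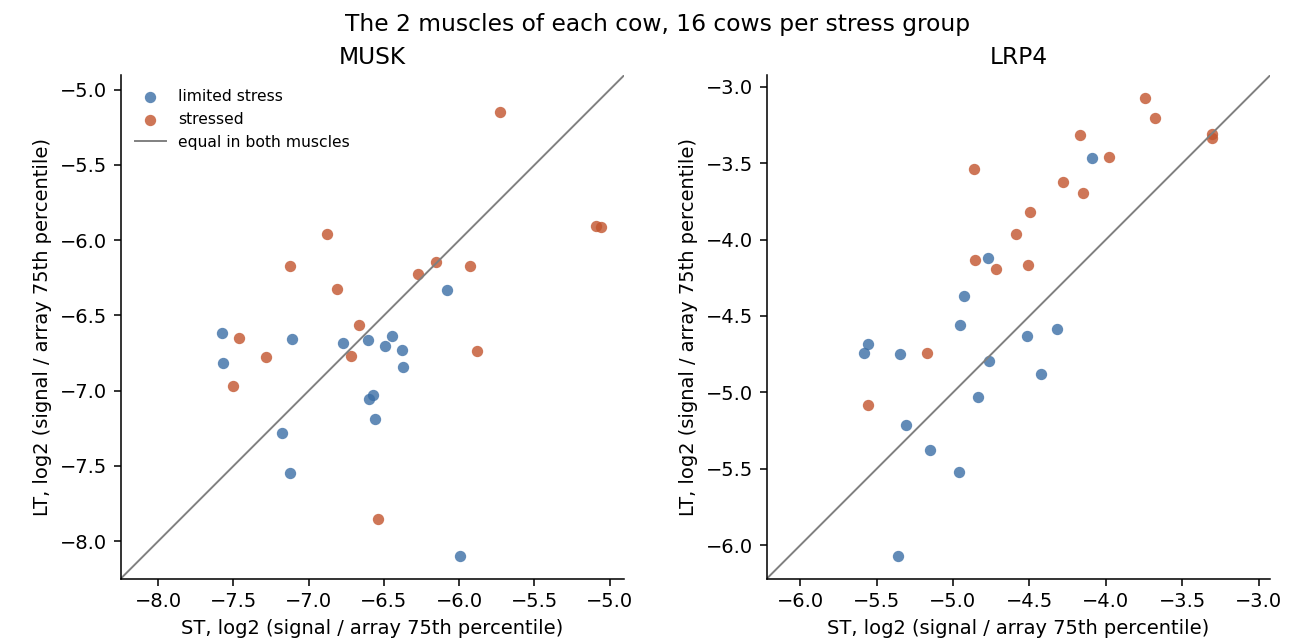
Level in the ST (x axis) against the LT (y axis) of the same cow, as log2 of the signal over the 75th percentile of the array, for MUSK (left) and LRP4 (right), with 1 point per cow, blue for limited stress, orange for stressed cows and a grey line where both muscles are equal. The stressed cows lie along a slope for LRP4 (r = 0.87) and mostly above the grey line, while the MUSK points are scattered.

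Other transcripts of the junction were taken from lists of 42 tested genes outside MUSK and LRP4. Of the agrin receptor complex, AGRN, DOK7, RAPSN, CRK and CRKL had no named probe here, so LRP4 and MUSK were its only measured members. The acetylcholine receptor, whose clustering is the end point of agrin signalling, was measured for all 5 subunit genes with 10 transcripts. None of these was called for stress by limma in either muscle or under any alternative, beside 3.74% of all transcripts in the LT and 3.63% in the ST. The median log2 stress difference of the 10 was 0.09 in the LT and -0.003 in the ST, against -0.05 and -0.06 over all transcripts tested.

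CHRNE, the subunit of the adult receptor, had lowest, median and highest signals of 1400.1, 5400.4 and 10954 with limited stress and 2043, 8263 and 11852 with stress in the LT, and 12 of 16 stressed cows exceeded the limited stress median in each muscle. Its 2 transcripts had log2 differences of 0.52 and 0.53 in the LT and 0.58 and 0.57 in the ST, which did not pass the threshold (limma adjusted p of 0.211 or more for every probe). CHRNG, the subunit of the fetal receptor, had differences of 0.14 to 0.31 (limma adjusted p of 0.292 or more). CHRND, the delta subunit, had differences of -0.42 to -0.20, with lowest, median and highest signals of 12.0, 164 and 460 in the stressed cows of the LT. CHRNA1, which carries the main agonist binding site, had differences of -0.02 to 0.11, and CHRNB1, the beta subunit, of -0.13 to -0.06.

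Between the muscles, 4 of the 10 receptor transcripts were higher in the LT and none was lower, beside 22% higher and 29.2% lower of all transcripts tested. These 4 came from CHRNA1 and CHRNE alone, each counted through both a named probe and a custom probe set. CHRNA1 was higher by 1.33 and 1.28 on the log2 scale (SE 0.11 for both, largest limma adjusted p = 5.47e-14), and its named probe had a median signal of 1923 with limited stress in the LT against 701 in the ST. CHRNE was higher by 0.59 and 0.50 (SE 0.19 and 0.20, largest limma adjusted p = 0.0572). With a block for scan day both CHRNE transcripts lost the call, and 1 of them also with a block for slide, while both CHRNA1 transcripts kept it in all 8 alternatives.

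Over all lists, 5 of 61 tested transcripts rose and 5 fell with stress in the LT, beside 2.2% higher and 1.53% lower of all transcripts. In the ST, 3 of 62 rose and 4 fell, beside 1.51% higher and 2.12% lower. The median log2 difference was -0.02 against -0.05 over all transcripts in the LT, and -0.13 against -0.06 in the ST. ETS2, MYOG and, in the LT, MYF6 and MYOD1 were each counted through both a named probe and a custom probe set. The study reports these genes and GADD45A as changed with stress on the same arrays, and the lists were chosen with earlier results known. The counts are therefore a description. ETS2, a transcription factor of the family that drives synaptic genes, rose by 1.15 and 1.17 in the LT and by 1.23 with both transcripts in the ST. GADD45A, a growth arrest gene that is induced in denervated muscle, rose by 1.16 and 1.20. MYF6, a myogenic factor of mature fibres, rose by 0.62 and 0.61 in the LT, a call that was lost with the control features as scaling. Its values in the ST were -0.02 and -0.03, and this difference between the muscles was not tested.

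The genes that fell included MYOG, the myogenic factor that activates receptor genes after denervation. Its differences were -1.004 and -0.99 in the LT and -0.85 and -0.86 in the ST, and 0 of 16 stressed cows exceeded the limited stress median in either muscle. MYOD1, a further myogenic factor, had differences of -0.69 and -0.62 in the LT, where both transcripts were called (the second not with the control features as scaling), and of -0.61 and -0.54 in the ST, where neither passed the threshold. LAMA5, a laminin chain of the synaptic basal lamina, had a dim probe with a difference of -0.45 in the LT, while that in the ST was -0.39, and its call was lost in 1 of 7 alternatives in the LT and in 5 of 7 in the ST. Over the alternatives the difference ranged from -0.63 to -0.11 in the LT and from -0.39 to -0.07 in the ST. VLDLR, a relative of LRP4 in the LDL receptor family, was called in the ST with 1 of its 2 transcripts at -0.19, a call that 1 of 7 alternatives kept. The MUSK signalling partners (11 transcripts of 8 genes) and the dystrophin and utrophin complex (4 transcripts of 3 genes) had no stress call in either muscle.

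**Figure D5:**
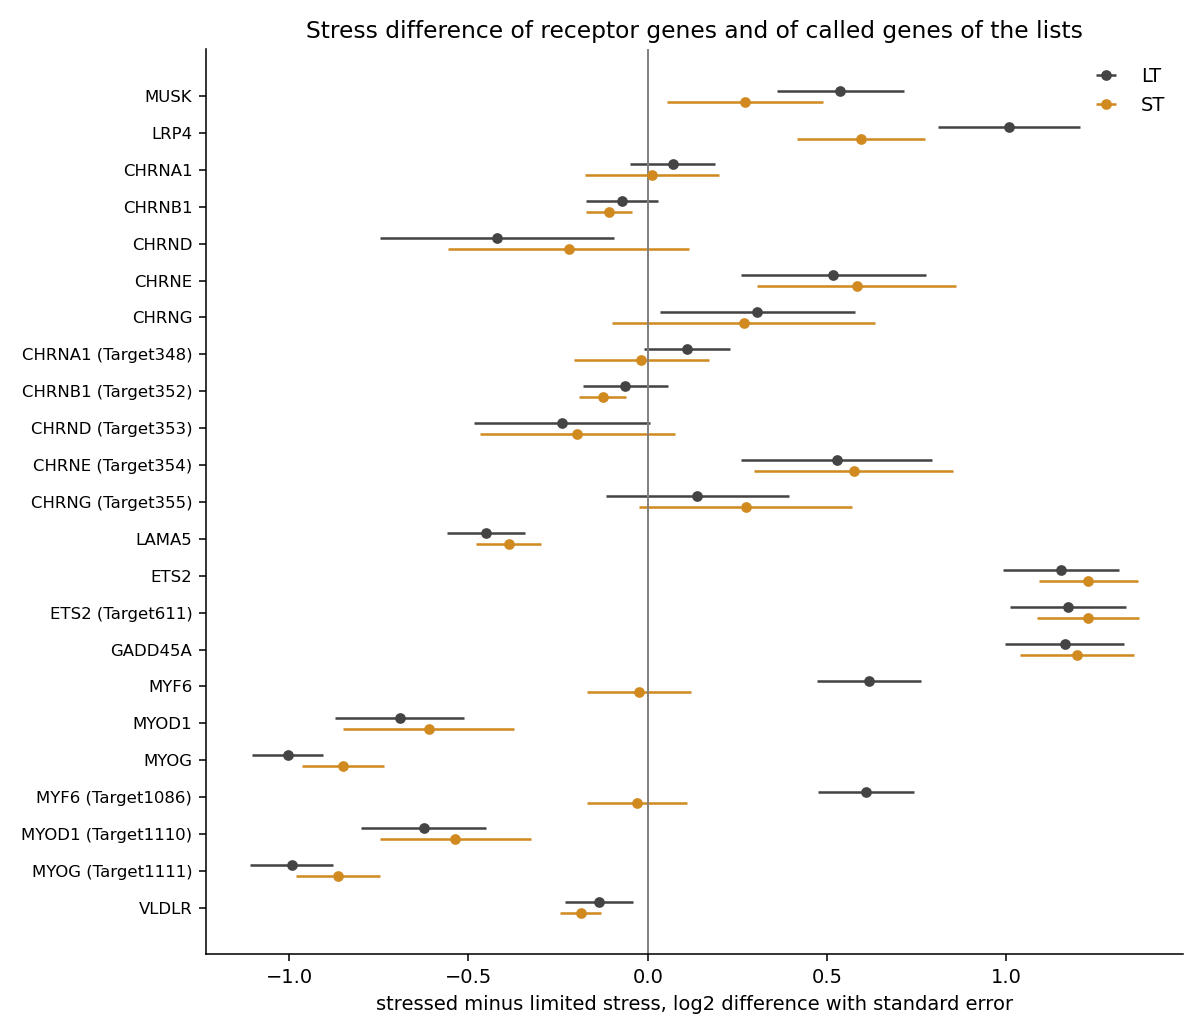
Log2 difference between stressed and limited stress cows (x axis) in the LT (grey) and the ST (ochre) for MUSK and LRP4, for the 10 acetylcholine receptor transcripts and for the other list transcripts called in at least 1 muscle (y axis, custom probe sets in brackets), with points for the estimate and bars for its standard error. MUSK and LRP4 are shown as a description, the CHRNE points lie at 0.52 to 0.58, and the MYF6 points lie at 0.61 and 0.62 in the LT and at -0.02 and -0.03 in the ST.

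Between the muscles, 13 of 62 list transcripts were higher and 18 lower in the LT, beside 22% higher and 29.2% lower of all transcripts tested. With the control features as scaling the split was 17 and 6, and without scaling it was 21 and 13. PAK1, a kinase downstream of MUSK, was higher in the LT by 0.56, MYOG by 0.74 and 0.81, and MYF5 by 0.62 to 0.69. SFRP1, a secreted Wnt inhibitor, was higher by 0.46, a call lost with a block for scan day. LRP6, a Wnt coreceptor related to LRP4, was lower in the LT by a log2 difference of -0.83, and SSPN (sarcospan) of -1.06 and -0.99. SGCB, a sarcoglycan, VLDLR, GSK3B and CSNK2A2 had values of -0.46, -0.42, -0.34 and -0.31, calls that were lost with the control features as scaling. ACHE, the acetylcholinesterase of the synaptic cleft, was called lower in the LT, but its named probe was not well above background on most arrays of either muscle. That probe passed the filter in the ST alone, where it was higher, so its muscle call carries no weight. The call of the custom probe set of ACHE was lost in 5 of 8 alternatives. Among list transcripts well above background in both muscles, 13 of 61 were higher and 17 lower in the LT.

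The transcripts whose levels were most like those of each member were found by Pearson's r over the 64 arrays among 4324 transcripts. This is a description, since all points share arrays, cows and scaling. For MUSK, the 3 highest values were those of Target1864 (an unnamed custom probe set, r = 0.58) and the 2 transcripts of MYF6 (0.57 and 0.56). After removal of the 8 group means, the 4 highest were Target1864 (0.54), MYF6 (0.53 and 0.52) and Target423 (0.50). Within the LT the r of MUSK and the named MYF6 probe was 0.64 and within the ST 0.52, each over 32 cows, and it was between 0.47 and 0.57 in the 4 groups of muscle and stress.

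For LRP4, the 5 highest values were the 2 transcripts of PDK4, a kinase that restrains glucose oxidation (both 0.68), HEYL, a transcriptional repressor of the Notch pathway (0.63), and the unnamed sets Target894 (0.63) and Target1414 (0.62). After removal of the group means HEYL was first (0.60), followed by Target1586 (0.57), A_73_106872 (0.56), Target1003 (LOC789183, 0.53) and Target591 (0.52). The r of LRP4 and HEYL was between 0.54 and 0.70 in the 4 groups of muscle and stress. For the named PDK4 probe it ranged from 0.20 in the LT of the limited stress cows to 0.62 in the ST of the same cows. MUSK itself stood at place 556 for LRP4 and LRP4 at place 322 for MUSK, with r = 0.20 over the 64 arrays and 0.04 after removal of the group means.

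Markers of other cells in the pieces of muscle were measured beside these genes. Of the nerve and Schwann cell markers 3 were tested, among them GAP43 and MBP, and none was called for stress in either muscle. Their summed signal had a median of 394 (330.98 to 486) with limited stress and 387 (246 to 491) with stress in the LT, and 413 (309 to 487) and 377 (302.9 to 545) in the ST. Of the slow fibre transcripts, 7 of 10 were higher in the LT and 1 lower, and of the fast fibre transcripts 8 of 10 were lower and 1 higher, beside the 22% higher and 29.2% lower of all transcripts. None of the slow or fast fibre transcripts was called for stress. The part of fibre type and of nerve content in the muscle difference of LRP4 was not tested.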

How the data were processed

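Per the file headers, the authors read each array with Agilent Feature Extraction 10.1.1.1, and the deposited intensities are its processed signals, background-subtracted by this software. The deposited series table held the same intensities on 100% of its values (relative tolerance 0.0001), with neither scaling nor log2 transformation. The study describes a scaling to the median of control probes. A scaling to the control features was an alternative here, since the median of the 536 control features was 3.24 units at the median array. The study counts a different number of control probes for its array, so this alternative may differ from its scaling. Each signal was divided by the 75th percentile of the 13414 other spots of its array and log2 transformed.

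The tests kept a probe when 11 or more of the 32 arrays from one muscle had it well above background. Groups of stress and diet were fitted with limma 3.58.1 in R 4.3.3 per muscle, or the 8 groups over 64 arrays, with Benjamini-Hochberg adjustment over all probes and two-sided tests. MUSK and LRP4 were fitted with all probes. The code was tested on simulated data. Relations within stress groups used two-sided permutation tests of 100000 resamples. Residuals of the 2 muscles of a cow correlated with a median r of 0.417 over 32 cows (0.099 to 0.749, 31 over 0.1), and the labels give the cow, so the muscles are paired. The period of slaughter used in the study's model is not in the labels and was not used. The alternatives were other scalings, normexp with quantile normalization, no filter on dim probes, and the slide, the scan day or the cow as a block. The precision was limited by the number of arrays.

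The members, gene lists and tests were chosen with earlier results of these data known. The named transcripts are both members, the measured genes of the receptor complex and of the acetylcholine receptor, in the other lists those called for stress and up to 3 per list with the smallest adjusted p for muscle, and the 5 transcripts most like each member over the arrays and over residuals. Some transcripts that this rule names are not reported here. Custom probe sets took the name of a gene when a run of 25 or more bases was shared with probes of that gene alone.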

Additional observations from a re-analysis of the deposited data

Results flagged for a closer look

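MUSK in the LT of the limited stress cows on the EP diet had 1 animal far below the others of its group. Its signal was 12.0 units, and its distance to the next cow was 0.558 of the range of the 8 cows on the log2 scale, above the limit of 0.526 for 8 samples. This spot was not well above background. It was the 1 value past this limit among 16 groups of 8 arrays (8 per gene), and chance marks about 1 in 20 groups.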

How the results depend on the processing

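MUSK and LRP4 rest on 1 probe each, and MUSK lay close to background, which limits its differences. Over 35 results and 244 alternative values, those not named here kept their direction and their side of the threshold. With the control features as scaling, the muscle difference of MUSK was 0.11, its interaction of muscle and diet 0.023, the LT diet difference of LRP4 0.018, the relation of MUSK and LRP4 in the ST of stressed cows 0.10, that of MUSK between the muscles of limited stress cows 0.27 and that of LRP4 between the muscles of stressed cows 0.63. There, 6 list transcripts were called for stress in the LT, and 35 transcripts in the LT and 38 in the ST among all transcripts, against 10, 161 and 154. Without scaling, the muscle difference of MUSK was 0.046, the relation of LRP4 between the muscles of limited stress cows 0.66 (adjusted p = 0.0234) and the ST stress count 87. With normexp and quantile normalization, MUSK and LRP4 in the LT of stressed cows had r = -0.057, and MUSK between the muscles of stressed cows r = 0.66 (adjusted p = 0.0456). With the slide as a block, the muscle difference of LRP4 was 0.35 and 52 transcripts were called for stress in the ST, and with the scan day 0.34 and 71. Centred on slide and stress group, MUSK and LRP4 in the LT of limited stress cows had r = -0.0021 and LRP4 between the muscles of limited stress cows r = 0.82, or 0.78 centred on scan day. The share of higher transcripts among those called for stress in the ST moved from 41.6% to 86.8% with the control features and to 90.8% without scaling, and among those called for muscle from 42.9% to 82.6% and 72.7%. The cow as a replicate block gave adjusted p = 0.00232 for the muscle difference of LRP4 and 0.539 for MUSK, and changed no call of either. It called 241 transcripts for stress in the LT and 149 in the ST. The slide or the scan day as a block called 2 transcripts for diet in the ST against 0. In total 1435 transcripts were called for muscle with the control features, against 2217. The cause of these changes was not tested.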
